A study of Mus musculus with 4 samples.

Results

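The transcripts of the tissue inhibitors of metalloproteinases (Timp1, Timp2, Timp3 and Timp4) and of Reck were followed on every array probe that carries one of these gene names. The 5 genes, of 37074 gene names on the array, had 10 such probes among 56605 non-control probes: 1 for Timp1, 2 for Timp2, 3 for Timp3, 3 for Timp4 and 1 for Reck. The samples were NIH3T3 cells, an established mouse fibroblast line grown here with fetal calf serum at 2%. They were transfected with an siRNA against Timp1 (siTIMP1, n = 2 arrays) or with a control siRNA (siControl, n = 2 arrays), in both cases delivered with apatite nanoparticles, abbreviated sCA in the labels. The labels call the cells dermal fibroblasts, whereas NIH3T3 is known as a line established from mouse embryos. Whether the 2 arrays of a group stand for separate cultures is not stated. A p-value therefore reflects only how these 4 samples scatter, and that scatter may be technical.

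TIMPs are small secreted proteins that bind the active site of matrix metalloproteinases and so restrain the breakdown of extracellular matrix. TIMP1 blocks most secreted matrix metalloproteinases, TIMP2 also takes part in the activation of pro-MMP2 by MMP14 at the cell surface, and TIMP3 stays bound to the matrix and additionally inhibits several ADAM and ADAMTS proteases. TIMP4 has a narrower tissue range, with high levels known from heart and brain. RECK is a membrane-anchored glycoprotein of fibroblasts that inhibits metalloproteinases at the cell surface and also serves as a receptor component for WNT7.

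Of the 10 probes, those for Timp1, Timp2 and Reck and 2 of the 3 for Timp3 were well above background on all 4 arrays, 6 probes in all. The other 4, the third Timp3 probe and all 3 Timp4 probes, were not well above background on both arrays of either group and were not tested. The probes that carry the main readings are short oligonucleotides of 60 bases. Shown first is the Timp1 probe, on which the check of the knockdown rests, and then the second Timp2 probe, which differed from the other Timp2 probe. Both lie in coding sequence. Capitals mark the longest run that a probe of any other gene on the array also contains.
Timp1, probe A_52_P87713 at chrX:20451675-20451733 (mm9, plus strand): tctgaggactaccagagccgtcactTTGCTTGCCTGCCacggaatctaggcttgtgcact
Timp2, probe A_65_P12392 at chr11:118171964-118178741 (mm9, minus strand): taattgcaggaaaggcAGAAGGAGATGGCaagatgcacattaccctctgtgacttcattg
The shared run was 13 bases in each, with a probe of Lrrc8d for Timp1 and of Fhit for Timp2. No run longer than 8 bases was shared between the probes of different members, so none of these probes repeats the sequence of a paralog's probe. The genomic span of the second Timp2 probe is 6778 bases for a 60-base oligonucleotide, which places it across at least 1 splice junction.

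The arrays shared 1 slide and 1 scan. The siTIMP1 samples took positions 3 and 4 and the siControl samples positions 1 and 2, so that position and group cannot be told apart. No spot was saturated. All 10 fibroblast markers, among them Col1a1, Vim and Pdgfra, were well above background on all 4 arrays, and their summed level was 2101 to 2110 times the 75th percentile with siTIMP1 and 1996 to 2116 times with siControl. Of 7 epithelial markers, Krt8 and Krt14 were well above background on all 4 arrays, Krt18 on 1, and Epcam, Cdh1, Krt5 and Cldn4 on none, with a summed level of 0.493 to 0.606 with siTIMP1 and 0.419 to 0.595 with siControl. Of 5 endothelial markers, Pecam1 was on 2 arrays and Cdh5, Tek, Tie1 and Emcn on none (0.115 to 0.120 with siTIMP1, 0.0862 to 0.121 with siControl). Of 4 smooth muscle and pericyte markers, Myh11, Cnn1 and Acta2 were on all 4 arrays and Des on 2 (112 to 118 with siTIMP1, 99.5 to 118 with siControl). Among 6 leukocyte markers, Adgre1 and Lyz2 were on none and Ptprc, Itgam, Cd68 and Cd3e on all 4, with a summed level of 13.8 to 14.7 with siTIMP1 and 16.7 to 16.9 with siControl. Each marker was counted by the probe of its gene that was well above background on the most arrays, so other probes may differ. The part of these marker signals in the results below was not tested.

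Values are given as the processed signal of the scanner software and as its normalised log2 value, which is log2 of the signal minus that of the array's 75th percentile. Signals of different probes depend on each probe's affinity, so the members' levels are not ranked against each other.

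Timp1 had by far the largest change of the members tested. Its processed signal was 1840 and 1492 on the siTIMP1 arrays, against 53297 and 67559 on the siControl arrays. The groups were far apart, and both siTIMP1 values were still well above background. In multiples of the array's 75th percentile the signal was 9.69 and 7.87 with siTIMP1 and 286 and 371 with siControl, so the transcript targeted by the siRNA was lowered but remained readily measured. The normalised log2 value fell by 5.22 (SE 0.158, limma adjusted p = 0.0105), which left 2.68% of the siControl level. In RNA from whole cultures, fewer cells with the transcript and less transcript per cell cannot be told apart.

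Timp1 was the only one of the 6 tested member probes to pass the limma threshold of an adjusted p under 0.05, where 0.688% of all 26015 tested probes passed. In that background 0.627% passed as lower and 0.0615% as higher. The Timp1 probe had the smallest unadjusted p of all tested probes and the second lowest log2 fold change. The lower one, that of a Gart probe (-5.35, limma adjusted p = 0.116), and the next one after Timp1, that of Dcun1d2 (-5.13, limma adjusted p = 0.154), both came from probes at background on both siTIMP1 arrays, so their sizes depend on the background level. Among the 23217 tested probes that were well above background on all 4 arrays, the log2 fold change of Timp1 was the lowest, and the next, that of Pcf11, was -2.70 (limma adjusted p = 0.186). The limma adjusted p of Timp1 became 0.137 without siTIMP1 replicate 1, 0.184 without siTIMP1 replicate 2 and 0.134 without a mean-variance trend. No probe of the whole array was called in those 3 settings, while 2920, 2692 and 4216 probes had an unadjusted limma p under 0.05.

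**Figure D1:**
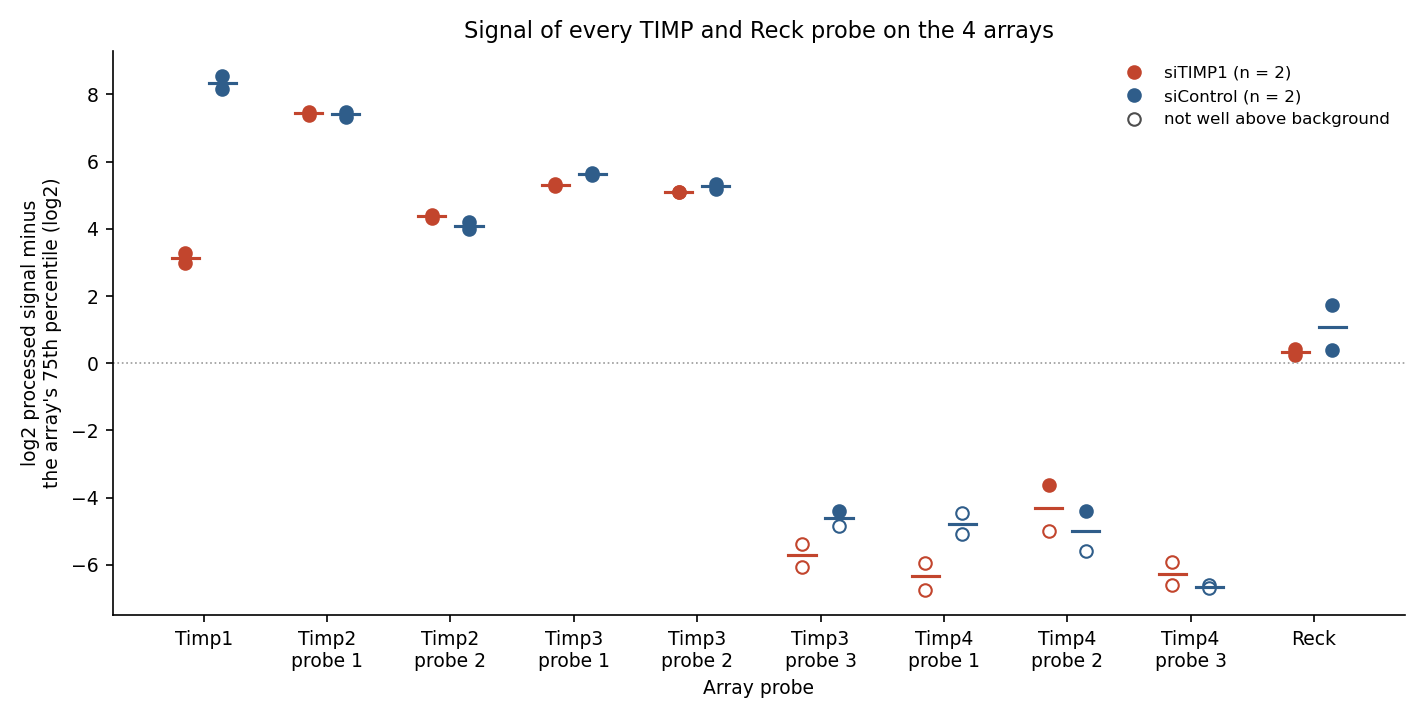
Normalised log2 signal (y axis, relative to the 75th percentile of each array) of the 10 probes of Timp1, Timp2, Timp3, Timp4 and Reck (x axis). Each point is 1 array, lines are group means, open points were not well above background, and values of different probes are not comparable with each other. The siTIMP1 points of Timp1 lie at 3.28 and 2.98, below the siControl points at 8.16 and 8.54. The siTIMP1 points of Timp2 and of both tested Timp3 probes lie close to their siControl points. The third Timp3 probe, at or near background, had siTIMP1 points at -5.36 and -6.07 and siControl points at -4.84 and -4.39.

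Timp2 was measured by 2 probes that gave different readings. The first, A_52_P540219 at chr11:118163146-118163205 (mm9, minus strand), had processed signals of 31873 and 34102 with siTIMP1, against 33503 and 29258 with siControl. The groups overlapped. Its log2 fold change was 0.03 (SE 0.0709, 95% interval -0.15 to 0.21, limma adjusted p = 0.841), an interval that leaves room for a difference of about 0.2 either way.

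The second Timp2 probe, the one across a splice junction shown above, had 3827 and 4074 with siTIMP1 against 3396 and 2906 with siControl. Both siTIMP1 values lay above both siControl values. Its log2 fold change was 0.29 (SE 0.0864, 95% interval 0.064 to 0.51), and it was not called (limma adjusted p = 0.200). The change of the first probe relative to the second was -0.26 between the groups. The within-array differences did not overlap, as was the case for 46.2% of the 5848 genes with 2 tested probes, and 33.1% of those genes had a change at least as large. The disagreement between the Timp2 probes was therefore of an ordinary size for these arrays, and neither reading passed the threshold.

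Timp3, the matrix-bound inhibitor, was read lower by both of its tested probes, without a call. Probe A_51_P463765 at chr10:85811696-85811755 (mm9, plus strand) had processed signals of 7393 and 7636 with siTIMP1, against 9347 and 8758 with siControl. The 2 arrays of each group lay close together, differing by 0.049 log2 with siTIMP1 and by 0.061 with siControl, and the groups did not overlap. The log2 fold change was -0.31 (SE 0.0534, 95% interval -0.45 to -0.18, limma adjusted p = 0.0974), or 80.5% of the siControl level.

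The other tested Timp3 probe, A_55_P2865447 at chr10:85812041-85812100 (mm9, plus strand), had 6481 and 6426 with siTIMP1 against 7531 and 6634 with siControl. These groups did not overlap either, although siControl replicate 2 lay near the siTIMP1 arrays. Its log2 fold change was -0.18 (SE 0.0681, 95% interval -0.35 to -0.0016, limma adjusted p = 0.269). Over the tested member probes, 4 of 6 had groups that did not overlap, Timp1 and both Timp3 probes lower and the second Timp2 probe higher. Of all tested probes, 53% did not overlap, 23.2% with siTIMP1 lower and 29.8% with siTIMP1 higher. Lack of overlap, as in Timp2 and Timp3, was thus shared by most tested probes.

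The third Timp3 probe, A_55_P2715422 at chr10:85769407-85769466 (mm9, plus strand), is assigned to another transcript of the locus. It had processed signals of 4.61 and 2.82 with siTIMP1 and 6.52 and 8.66 with siControl, and it was well above background on 1 array, siControl replicate 2. The transcript it reports was at or near background in both groups, so no fold change is given.

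Reck, the membrane-anchored inhibitor, had 1 probe, A_55_P2730781 at chr4:43957452-43957511 (mm9, plus strand). Its processed signal was 256 and 226 with siTIMP1, against 625 and 239 with siControl. The groups overlapped, since siControl replicate 2 lay between the siTIMP1 arrays and siControl replicate 1 stood apart from all the others. The log2 fold change of -0.73 had an SE of 0.438 and a 95% interval of -1.85 to 0.39 (limma adjusted p = 0.420). Without siControl replicate 1 it was -0.05, and without siControl replicate 2 it was -1.41. Both of these fits leave out the gap between the siControl arrays, given next. The siControl arrays differed by 1.36 log2 for Reck, a gap that 1.97% of tested probes reached or exceeded, where the median gap was 0.145. A single siControl array thus decides the Reck value.

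Timp4 was not detected as a transcript that could be compared. Probe A_55_P2908603 at chr6:115195840-115195899 (mm9, minus strand) had 1.78 and 3.08 with siTIMP1 and 8.48 and 5.32 with siControl, on no array well above background. Probe A_51_P355427 at chr6:115196120-115196179 had 5.96 and 15.4 with siTIMP1 and 8.78 and 3.83 with siControl, with 1 array of each group well above background. Probe A_55_P2730556 at chr6:115196869-115196928 had 1.95 and 3.13 with siTIMP1 and 1.91 and 1.75 with siControl, again on no array well above background. The lowest signal called well above background ranged from 7.1 to 13.1 over the arrays. Most of these readings lay below that limit, and the rest lay around it. The 3 probes did not point one way, and a difference in Timp4 was not detectable at this sensitivity.

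**Figure D2:**
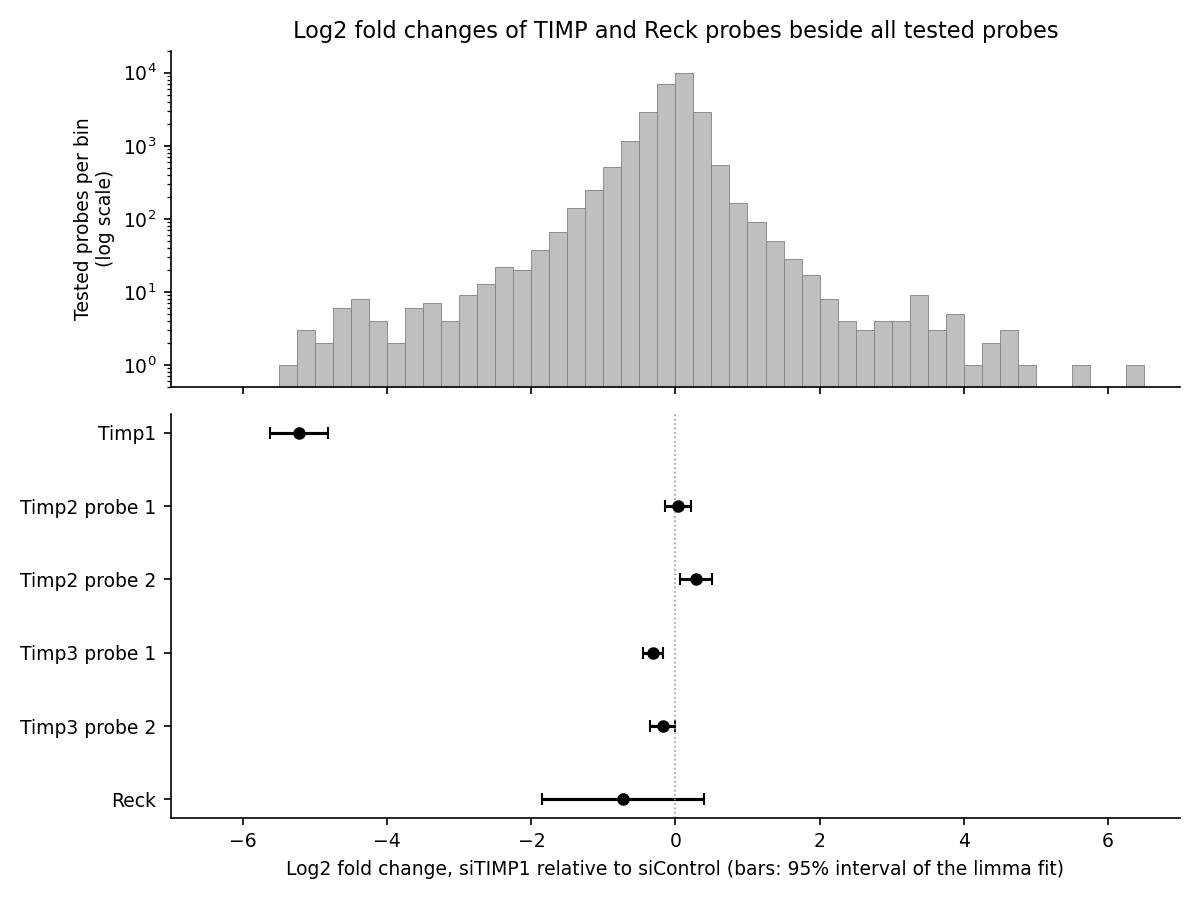
Upper panel: number of tested probes per bin of 0.25 in log2 fold change (log scale on the y axis), 26015 probes in all. Lower panel: log2 fold change, siTIMP1 relative to siControl, of the 6 tested member probes with the 95% interval of the limma fit; Timp1 lies at -5.22, the other members between -0.73 and 0.29, and the interval of Reck is the widest.

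Timp1 moved unlike the other tested members. Relative to the first Timp2 probe on the same array, Timp1 changed by -5.25 between siTIMP1 and siControl, relative to the brighter Timp3 probe by -4.91, and relative to Reck by -4.49. In all 3 comparisons both siTIMP1 arrays lay below both siControl arrays. All 3 use the same Timp1 values and so are not separate observations. Among single tested probes, 53% had groups that did not overlap. The exact two-sided permutation test gave p = 0.333 for each, which is the smallest that 2 against 2 arrays allow, and 0.333 after Benjamini-Hochberg adjustment over the 5 within-array comparisons made here, the 2 between probes of 1 gene included.

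Each 95% interval is that of a single probe, without adjustment for the number of probes tested, and reflects a scatter that may be technical. Within that limit, the intervals give the shifts of the other inhibitors that these arrays leave room for. For both Timp2 probes together the intervals run from -0.15 to 0.51, for both tested Timp3 probes from -0.45 to -0.0016, and for Reck from -1.85 to 0.39. An interval that leaves out no change, as for both tested Timp3 probes and the second Timp2 probe, is not a call. It goes with an unadjusted limma p under 0.05, which 18.4% of all tested probes had. A change of the size seen for Timp1 lies outside all of them.

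**Figure D3:**
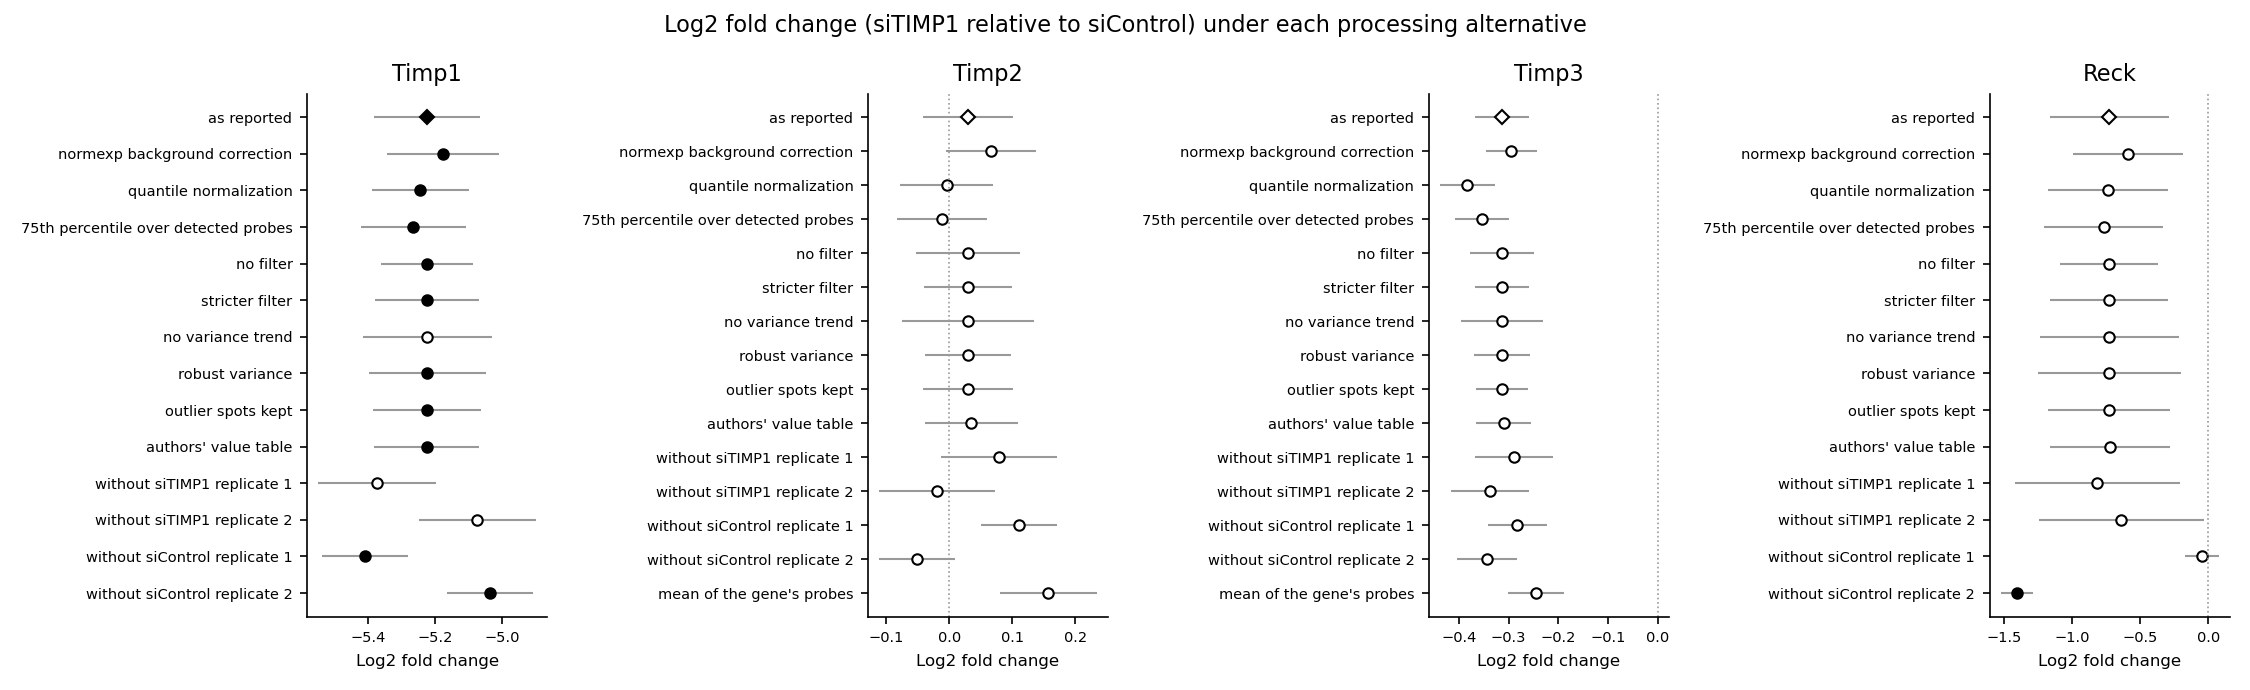
Log2 fold change, siTIMP1 relative to siControl (x axis, own scale in each panel), of Timp1, Timp2, Timp3 and Reck under each processing alternative (y axis); bars are the SE of the limma fit and filled symbols passed an adjusted p of 0.05. Timp1 stays between -5.41 and -5.04, and Reck moves between -1.41 and -0.05 with the siControl array that is left out. With 1 array left in a group, the SE and the filling rest on the scatter of the other group.

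The genes whose deviations from their own mean over the 4 arrays were nearest to each member are given as a description over 4 arrays and 12514 named genes. For Timp1 the nearest were the olfactory receptor gene Olfr1348, Gc, which encodes the vitamin D-binding protein, and the sulfotransferase gene Sult5a1, with root mean square differences of 0.456, 0.486 and 0.648 log2. All 3 were at background on both siTIMP1 arrays, unlike Timp1. Timp2 was nearest to Tbl3, Rpl7l1 and Eif4g1 at 0.00785 to 0.0117, and Timp3 to Tgfbrap1, Nol10 and Rhebl1 at 0.00916 to 0.016. Such close neighbours are common where a gene varies little. Reck was nearest to Spata7, Arhgef6 and Ccdc88b at 0.0391, 0.0727 and 0.112. Because these genes were picked for their likeness to Reck, each was also high on siControl replicate 1 alone. Deviations there were 1.03 log2 for Spata7 and 1.07 for Ccdc88b, beside 1.04 for Reck.

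**Figure D4:**
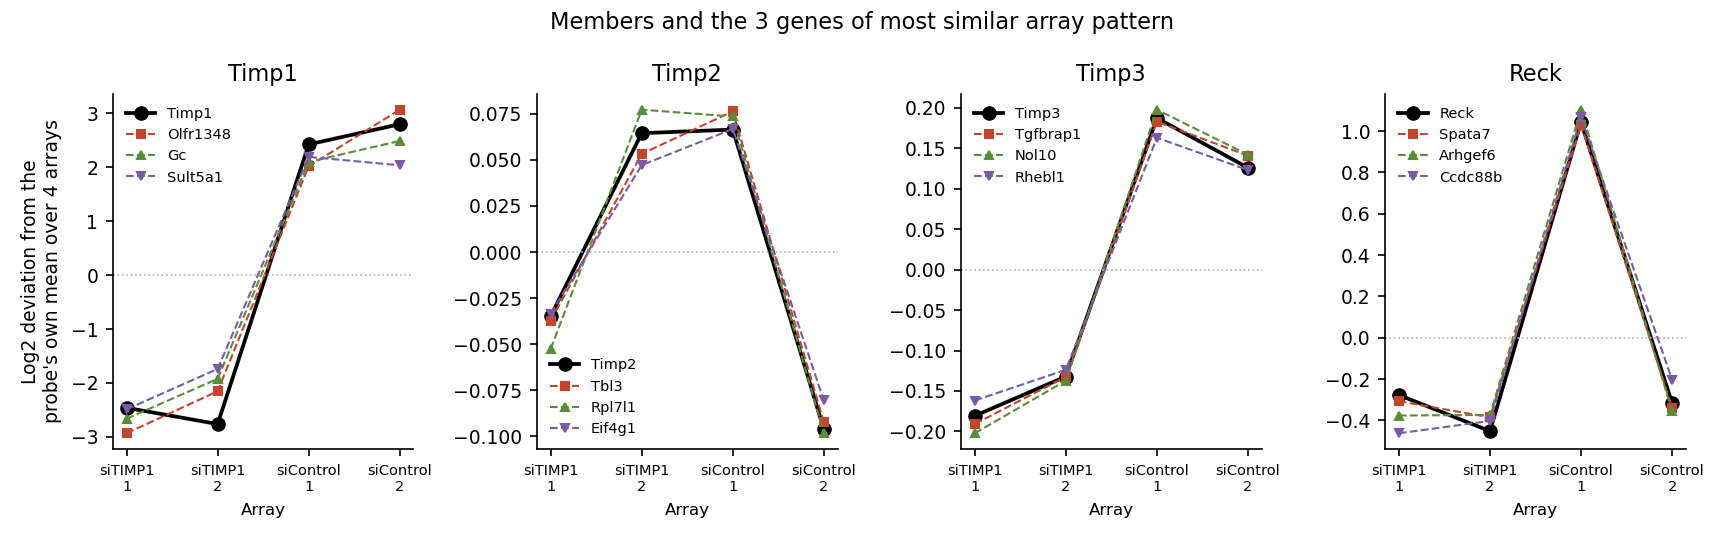
Deviation of the normalised log2 signal from the probe's own mean over the 4 arrays (y axis) on each array (x axis), for each member (solid line) and the 3 genes of most similar pattern (dashed lines). Reck and its 3 neighbours are above their means on siControl replicate 1 only, and the scale differs between panels.

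The proteases that these inhibitors bind showed 1 call. Of 23 matrix metalloproteinase genes on the array 7 were tested and none passed, with 3 at an unadjusted limma p under 0.05 (18.4% of all tested probes) and a median log2 fold change of -0.11, where the median over all tested probes was 0.019. Mmp2, the gelatinase whose proform TIMP2 binds, had normalised log2 values of 4.22 and 4.38 with siTIMP1 and 4.11 and 3.70 with siControl (log2 fold change 0.39, limma adjusted p = 0.262). Mmp11 had a log2 fold change of -0.24, and Mmp9 and Mmp19 had -0.63 and -0.39. Dimmer probes of these 2 genes differed, with -0.00028 for Mmp9 and -1.58 for Mmp19. Mmp14, the membrane-bound activator of pro-MMP2, was looked up after its values were seen and had -0.11 (limma adjusted p = 0.660). Of 12 ADAM and ADAMTS genes all were tested and 1 passed as lower, where 0.627% of all tested probes did, and the list had a median of 0.044. Adam10, a sheddase inhibited by TIMP1, TIMP3 and RECK, fell by 1.09 (SE 0.0931, limma adjusted p = 0.0281), and its other tested probe had -1.04. Its normalised log2 values averaged 1.08 with siTIMP1 and 2.17 with siControl, and this call too was absent without either siTIMP1 array and without a trend. Adam19, Adamts4 and Adam33 had -0.27, 0.31 and -0.31 and were not called. A dimmer Adam33 probe had -2.53, where the brighter one already averaged only -2.67 with siTIMP1 and -2.36 with siControl. A fold change read at so low a level may depend on the background level.

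Partners of the inhibitors showed no call in limma. Of 10 surface and matrix partners of TIMPs 7 were tested, with 1 at an unadjusted p under 0.05, against 18.4% of all tested probes, and a median of 0.034. Cd63, the tetraspanin through which TIMP1 acts on cells, had 0.03, Itgb1, the integrin chain in that complex, had 0.06, and Lrp1, an endocytic receptor that clears TIMP-protease complexes, had -0.23. Itga3, an integrin chain bound by TIMP2, had 0.14. Of 6 genes of the RECK and WNT7 receptor complex 5 were tested, with 2 at an unadjusted p under 0.05 beside the same 18.4%, and a median of -0.19. Lrp6, a WNT co-receptor, had -0.62 (limma adjusted p = 0.103) and Adgra2, which forms the WNT7 receptor with RECK, had -0.33 (limma adjusted p = 0.251), while Lrp5 and Wnt7b had -0.15 and -0.19. Tested probes of 1 gene differed in sign for Lrp1 (-0.23 to 0.087), Itga3 (-0.048 to 0.14) and Wnt7b (-0.19 to 0.16). In these 2 lists they also did for Cd44 (-0.084 to 0.12) and Igf1r (-0.36 to 0.36), which are given here after their values were seen. Of 12 other secreted inhibitors and related matrix proteins 8 were tested and none passed, with 1 at an unadjusted p under 0.05, again beside 18.4%, and a median of 0.059. Serpine2, an inhibitor of serine proteases, had 0.21, Pcolce had 0.17, Spock1 had -0.27 and Serpinh1, the collagen chaperone, had 0.16.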

How the data were processed

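Total RNA, labelled with Cy3, was measured on 1-colour Agilent arrays, 1 per sample. The authors deposited the intensity of each spot from the scanner files. Agilent Feature Extraction (version 11.5.1.1) is named in the submitters' processing notes. The processed signals are background-subtracted and detrended within each array and not scaled between arrays, per the file headers. The authors' deposited value table holds log2 values that followed the log2 processed signal minus 1 constant per array, 6.90 to 6.96, within 0.005. Its column medians were -3.99 and -3.91 for siTIMP1 and -3.94 and -3.86 for siControl. Coordinates are those of mm9, per the file headers.

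Computed here was the log2 processed signal relative to each array's 75th percentile, taken over non-control spots; outlier spots (136 to 250 per array) were left out. Testing required a value on all 4 arrays and a signal well above background on both arrays of a group. The comparison used limma (version 3.58.1, R 4.3.3; lmFit, eBayes with trend), adjusted by Benjamini-Hochberg across the 26015 probes tested, at a threshold of 0.05. The tested probe of highest mean stood for each gene, except for the cell type markers. Symbols were updated through RefSeq accessions for 1535 of 32994 matched probes. The share of spots well above background was 45.9% to 50.4% with siTIMP1 and 50.7% to 52.1% with siControl, and the number of arrays limits the precision. Replicate numbers follow accession order and only name samples.

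The members and lists were chosen with earlier results of these data known. The text names every member probe, the 3 genes nearest to each member by root mean square difference of deviations over the 4 arrays (clone, predicted and accession names left out), and up to 4 genes per list, called ones first and then by smallest p. Mmp14, Cd44, Igf1r and Syn2 fall outside this rule and were added after their values were seen. Alternatives were normexp background correction (offset 50), other scalings, filters and variance models, outlier spots kept, averaging of a gene's probes, the deposited value table, and leaving out each array. Figures were drawn with matplotlib 3.10.9.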

Additional observations from a re-analysis of the deposited data

How the results depend on the processing

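Timp1 kept its direction under every alternative run, between -5.41 and -5.04 when 1 array was left out, and was called in 10 of 13. Without a variance trend it was -5.22 and not called. Timp3 kept its sign in 14 of 14 and was called in none, with limma adjusted p-values from 0.0684 to 0.422. Reck kept its sign in 13 of 13 and ran from -1.41 to -0.050 when 1 array was left out. The first Timp2 probe had no settled sign: it was -0.0044 after quantile normalization, -0.011 where the percentile was taken over detected probes, -0.052 to 0.11 when 1 array was left out and 0.16 with the mean of its probes. Timp4 had no tested probe and so no value except where no filter was set and limma adjusted p-values of its 3 probes ran from 0.463 to 0.714. Called probes higher, 16 in all, numbered 124 when no filter was set, 0 without a trend, 61 under robust variances and 0 to 483 when 1 array was left out. Called probes lower, 163 in all, numbered 334, 0, 249 and 0 to 840 in the same settings. At an unadjusted limma p under 0.05 there were 4216 probes without a trend, 2920 without siTIMP1 replicate 1 and 2692 without siTIMP1 replicate 2, the settings with 0 calls. The cause was not tested. With 1 array left in a group, limma assumes that it varies like the other group. No paired analysis was possible because the labels give the groups no shared replicate numbers. Dim probes, those of Timp4 above all, are limited by background. A slide block could not be fitted with a single slide.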

Other observations

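In the RefSeq gene table (GRCm38.p6), Timp1, Timp3 and Timp4 each lie within a synapsin gene, Syn1, Syn3 and Syn2, which encode coat proteins of synaptic vesicles. Syn2 was added after its values were seen, to give all 3 host genes. None of these host genes was called in limma: Syn1 had a log2 fold change of -0.20, Syn3 of -0.48 and Syn2 of 0.01, with adjusted p-values of 0.426, 0.705 and 0.990. Syn1 was measured above the 75th percentile, at normalised log2 means of 0.77 with siTIMP1 and 0.97 with siControl, so the host of Timp1 was detected and its groups overlapped. The readings of Syn2 were low, at means of -4.03 with siTIMP1 and -4.04 with siControl. Those of Syn3 were low and scattered, with siControl arrays at -3.22 and -1.33 and an SE of 0.636. For Syn2 and Syn3 the lack of a call therefore says little. Timp1's other neighbours Araf and Cfp had 0.24 and 0.20 and were not called. Of 6 tested genes next to or around TIMP genes, 1 had an unadjusted limma p under 0.05, where 18.4% of all tested probes did.

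The promoter windows of 300 bases in the RefSeq table differ between members. Timp2, Timp3 and Reck had 25, 24 and 23 CpG dinucleotides, more than 81.6%, 80.0% and 78.5% of the 32851 windows in the table. Timp1 had 8 and Timp4 had 2, more than 51.4% and 14.1%. Timp4, with the fewest, was the member whose probes all lay around background on these arrays, a description of 5 genes with no test. The levels of the other members were not set against their counts, because signals of different probes are not comparable. Whether levels follow the counts was therefore not tested.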
